A study of Glycyrrhiza uralensis with 48 samples.

Results

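In 45-day-old seedlings of licorice (Glycyrrhiza uralensis), 65 of 38463 genes were selected on their RNA levels under salt and drought together, which were higher in aerial and lower in underground parts than in control seedlings. For each gene, the mean log2(FPKM + 1) of the 3 salt-drought libraries was set against that of the 3 control libraries, without silicate. FPKM is a level of fragments scaled by transcript length and by the size of the library. Genes entered the set with a difference of 0.6 or more in aerial parts and of -0.6 or less in underground parts. The selection read 12 libraries, and the size of these differences is therefore a description and was not tested. The opposite selection, lower in aerial and higher in underground parts, held 485 genes. Both parts were higher by 0.6 or more in 695 genes and lower in 1135. The set was small beside the 2329 genes that met the aerial limit and the 2300 that met the underground limit.

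Licorice is a dryland legume whose roots and rhizomes are harvested for the sweet triterpene glycyrrhizin. Roots meet salt and drying sand directly, whereas shoots receive sodium and lose water through the transpiration stream, so the organs face different parts of the same stress. Abscisic acid, a hormone made under water shortage, adjusts transcription in both. Silicon taken up as silicic acid is deposited in cell walls and is often given to crops under salt or drought.

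The whole series holds 48 libraries of seedlings of the species, in 16 groups of 3, with no genotype or strain in the labels. Salt-drought seedlings received 75 mM NaCl and were kept at 35 to 45% of the saturation moisture of the sand. Salt seedlings received 75 mM NaCl only, drought seedlings had the same low moisture only, and control seedlings received distilled water. Each condition was run with 2 mM silicon, added as potassium silicate, and without it, and aerial and underground parts were collected separately. All groups shared pots with 75 seeds in 1900 g of sterilised desert sand that supplied no nutrients. The labels name no potassium control for the silicate. They do not say that replicates came from separate pots, and p-values therefore cover only the variation among the sequenced libraries, which may be technical. Aerial and underground samples are bulk mixtures, in which fewer cells of a type and less RNA per cell cannot be told apart.

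Within a group, libraries correlated at 0.958 to 0.985 across genes, with the lowest value in underground salt seedlings. Between 19600 and 22050 genes per library reached 1 FPKM. The deposited files pair no identifier with a gene name, so organ identity was read from 30 genes per plant part that marked it most strongly in silicate-fed control seedlings. Marker levels are percentages of their mean in the silicate-fed control libraries of the part they mark, so those controls lie near that mean by construction. In each aerial library underground markers had a median level of 0.0133 to 12.6% of their underground level. The highest values were 12.6% in library 2 of aerial salt-drought with silicate and 10.1% in library 3 of aerial drought without it. In underground libraries the aerial markers stood at 0.0468 to 4.39% of their aerial level, highest in library 2 of underground salt-drought without silicate, which the selection read. All libraries thus carried mainly the markers of their labelled plant part.

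In the libraries that selected the genes, aerial salt-drought minus control had a median of 0.82 on the log2 scale over the 65 genes, with a range of 0.60 to 3.94. Underground the median was -0.82, and the range ran from -2.43 to -0.61. Over all genes tested the medians were -0.05 in aerial and 0.11 in underground parts. In 43 genes all 3 aerial salt-drought libraries lay above the 3 controls, in 49 all 3 underground salt-drought libraries lay below them, and 38 genes showed both. Over all genes tested the shares were 19.9%, 16.2% and 1.19%, and nothing can be read from the comparison, since the selection used these libraries. The set had a soft edge. The 3 genes just inside it had aerial and underground differences of 0.60 and -0.81, 0.60 and -1.25, and 0.60 and -0.76. The 3 just outside it had 0.74 and -0.59, 0.70 and -0.59, and 0.59 and -0.63. Leaving out each of the 12 libraries in turn, 20 genes kept the required differences every time and 45 missed them at least once.

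**Figure D1:**
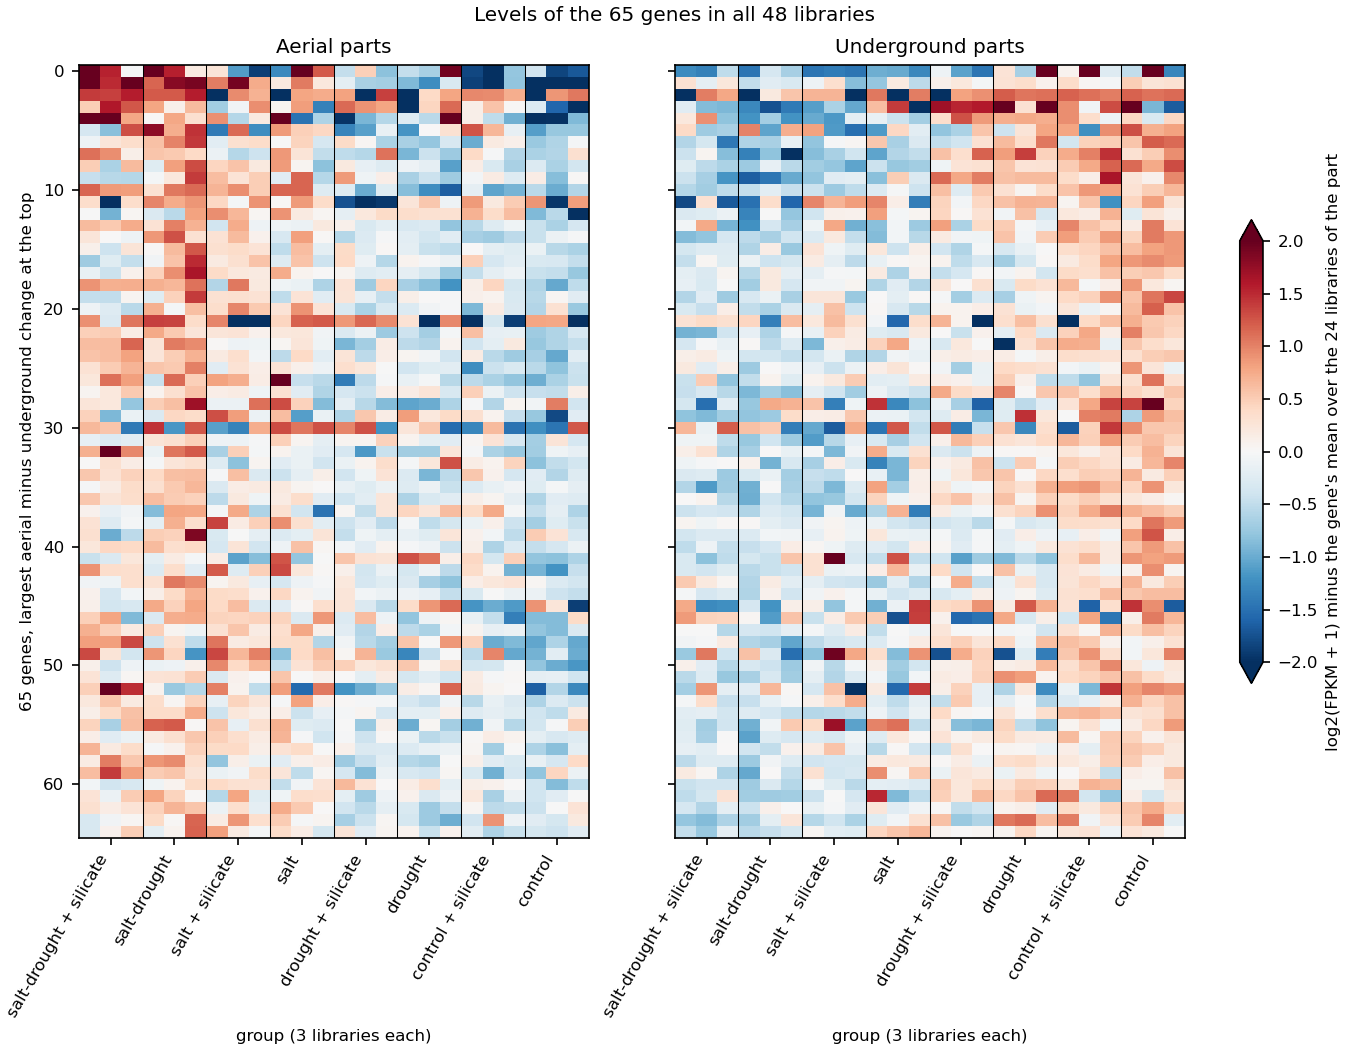
Levels of the 65 genes in all 48 libraries, as log2(FPKM + 1) minus the mean of the gene over the 24 libraries of the plant part; rows run from the largest to the smallest aerial minus underground change used in the selection, and columns are libraries, 3 per group. Salt-drought and salt columns are mostly red in aerial parts and mostly blue in underground parts, and the selection itself fixed this contrast between the salt-drought and control columns without silicate.

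The 65 genes differed widely in level. Their mean over the 48 libraries ran from 1.05 to 303 FPKM with a median of 10.5 FPKM, 5 genes were above 100 FPKM and 18 below 5 FPKM. With silicate, the median level over the genes in aerial parts was 11.3 FPKM in salt-drought, 10.8 FPKM in salt, 6.81 FPKM in drought and 6.30 FPKM in control seedlings. Underground with silicate it was 7.37 FPKM in salt-drought, 10.6 FPKM in salt, 9.70 FPKM in drought and 14.5 FPKM in control seedlings. Without silicate, the aerial medians were 12.01 FPKM in salt-drought, 10.7 FPKM in salt, 7.64 FPKM in drought and 5.94 FPKM in control, and the underground medians 7.86, 8.26, 13.1 and 15.2 FPKM in the same order. Among the silicate-fed groups, salt-drought and salt were the highest in aerial parts and control was the highest underground. Without silicate, the order of salt-drought and control was fixed by the selection.

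The genes were scattered over the assembly, and their models were short. The annotation holds 64 of the 65, and the other is a row that the table labels as a new gene without coordinates. The median model had 2 exons and 1042.5 exonic nt, compared with 4 exons and 1387 nt for the 24390 annotated genes that reached 1 FPKM in at least 3 libraries. A single exon was present in 17 of the 64 models (26.6%), compared with 15.2% of those expressed genes. None of the 64 had several annotated transcripts, compared with 6.48% of the expressed genes. They lay on 58 scaffolds, and 10 of them shared 4 scaffolds.

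Some of the models overlap other genes. In 18 of the 64 (28.1%, compared with 22.9% of the expressed genes) another gene lay on the opposite strand at the same place. How the deposited values treat strand is not stated, so it is unknown whether reads of such pairs were kept apart. A group of 3 members of the set formed a single locus, at 386699 to 388425 on the plus strand of Scaffold00058, with 386940 to 387425 and 387459 to 388060 on its minus strand. Their levels over the 48 libraries correlated at 0.846 and 0.897 between neighbours. They are counted below as 3 genes, although they may share reads.

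The selection contrast was repeated in silicate-fed seedlings, which played no role in choosing the genes. In aerial parts, salt-drought with silicate was called higher than control with silicate in 10 of the 65 genes and lower in 0 (limma, adjusted p under 0.05). Across all 23389 genes tested, 5.84% were called higher and 6.17% lower. The median difference over the 65 genes was 0.51, compared with 0.03 over all genes tested, and 48 of the 65 lay above 0. All 3 salt-drought libraries lay above the 3 controls in 27 genes (41.5%) and below them in 3. Over all genes tested, 16.8% lay above, and the share below was not counted. Of the 65 genes, 24 had an unadjusted p under 0.05, as did 26.6% of all genes tested. The called differences ran from 0.64 to 3.49.

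The underground response with silicate was called in more of the genes. Salt-drought was lower than control in 27 of the 64 genes that could be tested and higher in 0, against shares of 8.54% lower and 5.2% higher over all 24478 genes tested (limma, adjusted p under 0.05). The remaining gene did not reach 1 FPKM in 3 underground libraries. The median difference was -0.62, compared with 0.01 over all genes, and 7 of the 64 lay above 0. All 3 salt-drought libraries lay below the 3 controls in 40 genes (62.5%) and above them in 0. Of all genes tested 16.4% lay below, and the share above was not counted. The called differences ran from -1.59 to -0.54. The 27 include the 3 overlapping models of Scaffold00058, and 17 of the 27 were among the 46 tested genes whose model overlaps no other.

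The median over the genes separated the salt-drought libraries from the controls in each plant part, while single genes varied: with silicate, 17 of 65 lay below 0 in aerial parts and 7 of 64 above 0 underground. Per library, the median over the 65 genes, relative to the mean of the silicate-fed controls, was 0.46, 0.41 and 0.51 in the aerial salt-drought libraries with silicate, against 0.11, 0.02 and -0.10 in the aerial controls with silicate. Underground it was -0.67, -0.56 and -0.75 in salt-drought with silicate, against -0.02, -0.03 and 0.10 in the controls with silicate. The groups did not overlap in either plant part. In these 12 libraries the median of all genes tested lay between -0.05 and 0.08.

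**Figure D2:**
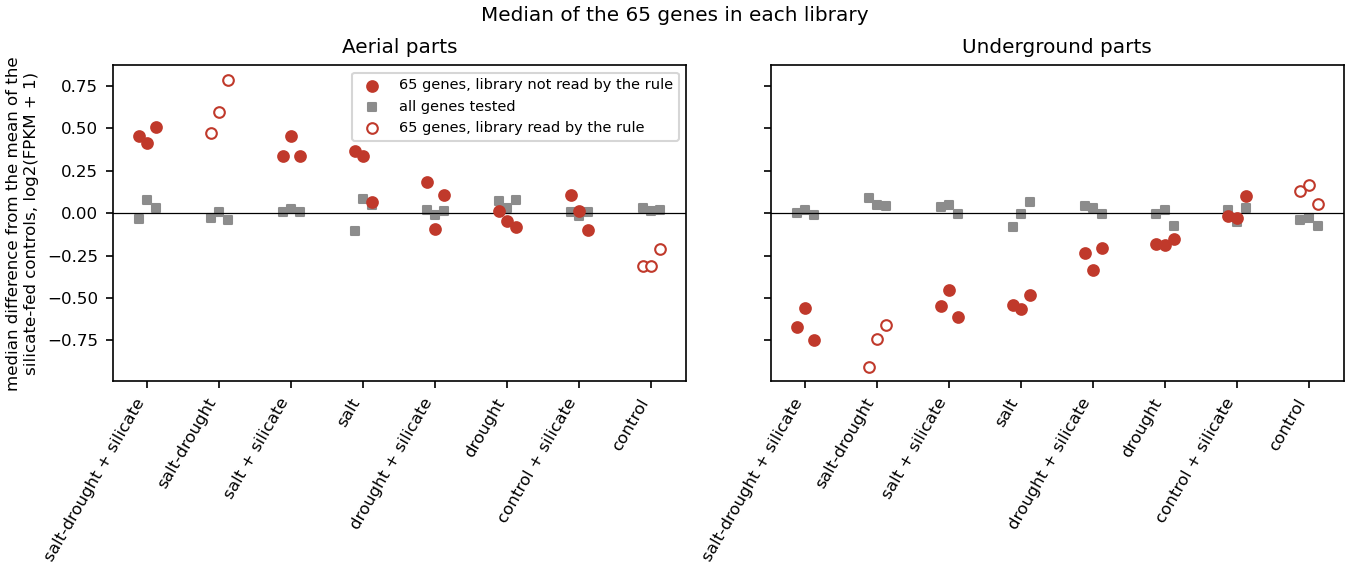
Median over the 65 genes in each library, as log2(FPKM + 1) minus the mean of the silicate-fed control libraries of the same plant part; grey squares give the same over all genes tested, and open circles mark the 12 libraries that selected the genes. Salt-drought with silicate sits between 0.41 and 0.51 in aerial parts and between -0.75 and -0.56 in underground parts, and drought groups sit closer to 0.

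With silicate, most calls were made in a single plant part. A call in at least 1 plant part was made for 36 genes: 9 in aerial parts only, 26 in underground parts only and 1 in both. Of the 21769 genes tested in both plant parts, 15.1% were called higher in aerial or lower in underground parts, and 0.0873% were called in both ways. Without regard to calls, 41 of the 65 were above 0 in aerial and below 0 in underground parts with silicate, against 21.6% of all genes tested, and 0 were the other way round in both. The limits of 0.6 were met in both parts by 9 genes, against 0.804% of all genes tested.

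**Figure D3:**
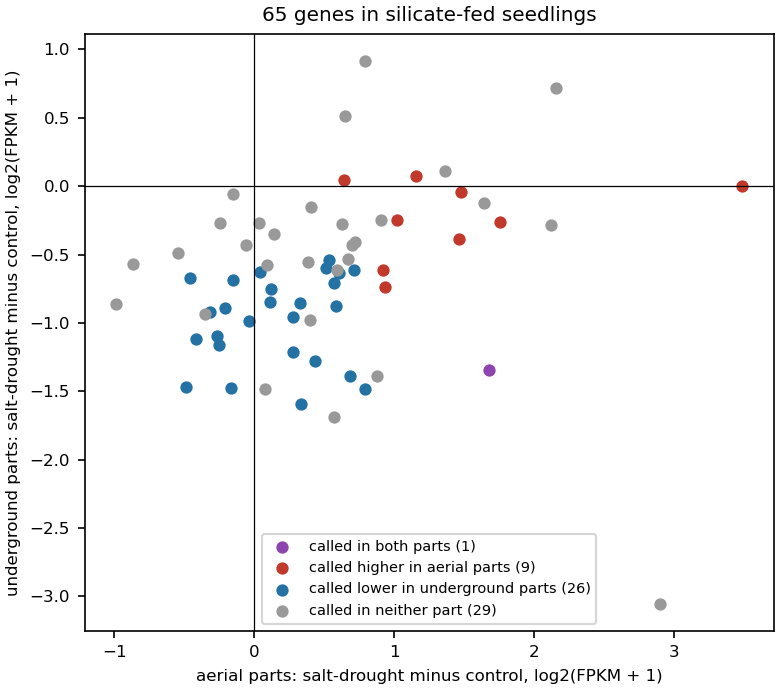
Salt-drought minus control in silicate-fed seedlings, aerial parts on the horizontal and underground parts on the vertical axis, both as differences of mean log2(FPKM + 1); each point is 1 of the 65 genes, coloured by its limma calls. The lower right quadrant holds 41 points, the called aerial rises reach 3.49, and the grey points include the gene that was not tested underground.

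Counts of called genes rested partly on single libraries. Without library 2 of aerial control with silicate, or without library 3 of aerial salt-drought with silicate, 6 genes were called higher in aerial parts. Without library 3 of underground control with silicate, 16 were called lower underground. No gene was called in the opposite direction in any of these. Underground markers stood at 0.774, 12.6 and 2.05% of their underground level in the aerial salt-drought libraries with silicate, against 0.444, 0.373 and 0.176% in the aerial controls with silicate. Summed over the list the levels were 1.23, 14.9 and 2.16% against 0.268, 0.290 and 0.0918%. Of the 30 markers, 0, 0 and 1 were at 0 in the salt-drought libraries, and 1 was at 0 in each control. With the libraries at 12.6 and 10.1% left out, 9 genes were called higher in aerial parts and the median was 0.49. In the aerial salt-drought libraries that the selection read, the same markers stood lower, at 0.0359 to 0.0739%, against 0.196 to 0.397% in their controls. Aerial markers in underground salt-drought with silicate stood at 1.08, 0.0468 and 2.74%, against 0.581, 0.374 and 0.646% in underground controls with silicate. Summed over the list these were 1.29, 0.164 and 3.52% against 0.700, 0.486 and 0.794%. Of the 30 aerial markers, 0, 8 and 0 were at 0 in the salt-drought libraries and 0 in each control. The underground parts' own markers stood at 93.6, 107 and 82.03% in salt-drought with silicate, against 98.5, 112 and 97.96% in control with silicate. The part of these markers in the underground result was not tested.

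The change was more positive in aerial than in underground parts in a direct test, which keeps the signs and does not compare the sizes of the responses. The difference between them, salt-drought minus control in aerial parts minus the same in underground parts with silicate, was called positive in 20 of the 65 genes and negative in 0 (limma on all 48 libraries, adjusted p under 0.05). Over 26335 genes tested, 2.35% were called positive and 1.07% negative. The median difference was 1.13 over the 65 genes and 0.04 over all genes tested, and it was above 0 in 60 of the 65. The called differences ran from 0.94 to 3.49. Of the 20 genes, 13 were also called lower underground and 7 higher in aerial parts, 1 of them in both, and 1 was called in neither plant part alone. Genes with no known overlap made up 14 of the 20 and 47 of the 65 tested, the new gene without coordinates included in the 47. The count fell to 11 without library 3 of underground salt-drought with silicate, to 13 without library 2 or library 3 of aerial control with silicate, and to 16 without the pair of aerial libraries richest in underground markers. For the genes of the opposite selection, 34 of 485 were called negative and 0 positive in the same test.

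Glyur000628s00026636 (48116 to 52217 on the plus strand of Scaffold00628, 4 exons, 1416 exonic nt) was the single gene called in both plant parts. In aerial parts it had 65.3, 52.2 and 51.6 FPKM in salt-drought with silicate, against 25.1, 13.1 and 14.4 FPKM in control with silicate. Every salt-drought library was above every control. The log2 difference was 1.68 ± 0.34 (SE; limma adjusted p = 0.0033). Underground it had 16.7, 15.2 and 17.6 FPKM in salt-drought with silicate, against 38.2, 47.3 and 44.8 FPKM in control with silicate. Every salt-drought library was below every control, and the difference was -1.34 ± 0.18 (SE; limma adjusted p = 3.71e-05). The aerial minus underground response was 3.02 ± 0.39 (SE; limma adjusted p = 1.98e-05). The files give no function for this gene.

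The same gene changed sides between the organs. In salt-drought with silicate its aerial level was above its underground level, by a log2 difference of 1.71 (limma adjusted p = 2.6e-06). In silicate-fed controls its aerial level was below, with a difference of -1.31 (limma adjusted p = 0.000117). Salt alone with silicate gave 46.2, 55.0 and 40.3 FPKM in aerial parts and 18.4, 14.96 and 17.5 FPKM underground. Against the silicate-fed controls these were differences of 1.42 (limma adjusted p = 0.0218) and -1.31 (limma adjusted p = 6.17e-05). Drought with silicate gave 23.7, 13.8 and 23.95 FPKM in aerial parts and 38.9, 21.1 and 37.0 FPKM underground, with differences of 0.23 (limma adjusted p = 0.959) and -0.46 (limma adjusted p = 0.347). The salt libraries stood apart from the controls in both organs, and the drought libraries overlapped them in both.

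Glyur000742s00025064 (34788 to 36884 on the minus strand of Scaffold00742, 2 exons, 1887 exonic nt) was the most abundant of the 65 genes and had the largest called aerial rise. In aerial parts it had 399, 257 and 378 FPKM in salt-drought with silicate, against 24.04, 19.7 and 52.2 FPKM in control with silicate. The lowest stressed library was well above the highest control. The log2 difference was 3.49 ± 0.36 (SE; limma adjusted p = 6e-06). Without salt-drought library 2, the library richest in underground markers, the difference was 3.69 (limma adjusted p = 2.56e-05). Underground it had 557, 398 and 525 FPKM in salt-drought with silicate, against 580, 460 and 434 FPKM in control with silicate. These groups overlapped. The underground difference was 0.00, with a confidence interval of -0.51 to 0.52 (limma adjusted p = 0.998).

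For Glyur000742s00025064 the aerial level thus approached the underground level. Aerial minus underground was -0.53 in salt-drought with silicate (limma adjusted p = 0.152) and -4.02 in silicate-fed controls (limma adjusted p = 3.08e-13). The aerial minus underground response was 3.49 ± 0.44 (SE; limma adjusted p = 1.42e-05). In the libraries that selected it, underground salt-drought had 320, 385 and 364 FPKM, against 632, 534 and 552 FPKM in control, a log2 difference of -0.68. In salt with silicate, the aerial libraries had 186, 346 and 153 FPKM, a difference of 2.83 from the silicate-fed controls (limma adjusted p = 0.000132). In drought with silicate they had 79.2, 57.3 and 56.4 FPKM, a difference of 1.09 (limma adjusted p = 0.386). A gene on the opposite strand overlaps this model and averaged 2.70 FPKM over the 48 libraries.

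Glyur000496s00030957 (139018 to 139953 on the minus strand of Scaffold00496, 1 exon, 936 nt) had the largest called underground fall and was picked after its values were seen. Underground it had 8.70, 5.59 and 7.82 FPKM in salt-drought with silicate, against 24.7, 25.8 and 21.3 FPKM in control with silicate. The groups were far apart. The log2 difference was -1.59 ± 0.29 (SE; limma adjusted p = 0.00113). In aerial parts it had 33.3, 37.8 and 43.8 FPKM in salt-drought with silicate, against 27.8, 30.3 and 32.1 FPKM in control with silicate. These groups did not overlap either, but the difference of 0.33 ± 0.13 (SE) was not called (limma adjusted p = 0.0982). The aerial minus underground response was 1.92 ± 0.33 (SE; limma adjusted p = 0.000701). Salt with silicate gave 9.14, 6.81 and 11.1 FPKM underground, a difference of -1.34 (limma adjusted p = 0.00471).

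**Figure D4:**
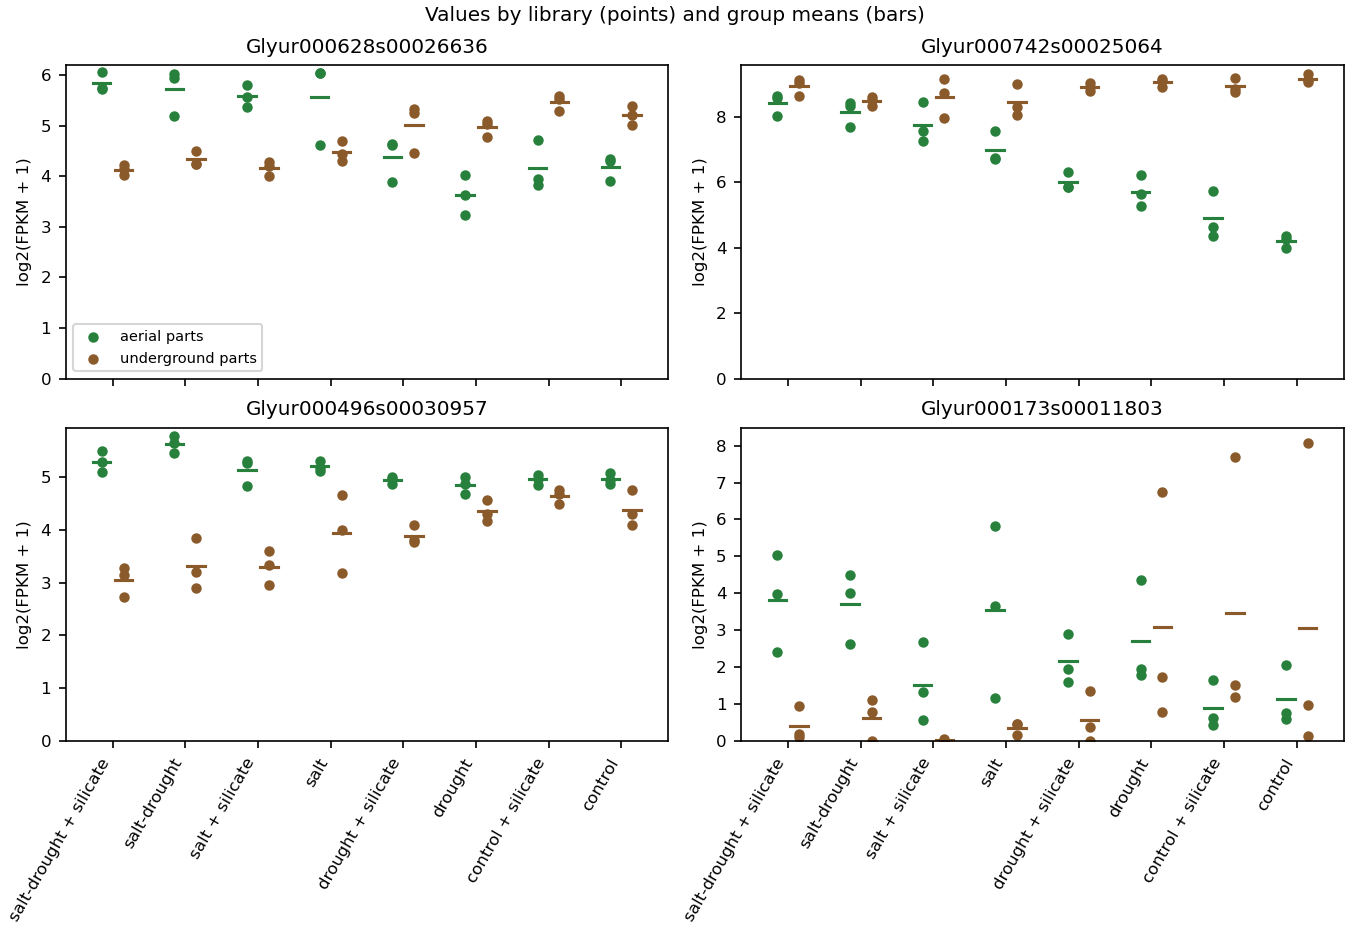
Values of 4 of the 65 genes in all 48 libraries, as log2(FPKM + 1) by group, with aerial parts in green and underground parts in brown, points for libraries and bars for group means of 3. Glyur000628s00026636 changes sides between the organs, Glyur000742s00025064 moves mainly in aerial parts, Glyur000496s00030957 mainly underground, and the underground controls of Glyur000173s00011803 rest on 1 high library per group.

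The gene with the widest selection contrast was not stable across libraries. Glyur000173s00011803 (6911 to 7585 on the plus strand of Scaffold00173, 1 exon) had differences of 2.57 in aerial and -2.43 in underground parts without silicate. Its underground levels were 0, 1.17 and 0.734 FPKM in salt-drought, against 0.955, 270 and 0.111 FPKM in control. Control library 2 alone stood high, and without it the underground difference was 0.08. With silicate, its underground levels were 0.151, 0.0783 and 0.925 FPKM in salt-drought, against 1.87, 206 and 1.30 FPKM in control. Library 2 again stood alone, and the difference of -3.05 was not called (limma adjusted p = 0.287). The gene was also uneven outside the controls, with 2.33, 0.733 and 107 FPKM in underground drought without silicate. In aerial parts it had 32.0, 14.7 and 4.35 FPKM in salt-drought with silicate, against 0.533, 0.360 and 2.18 FPKM in control with silicate. The groups did not overlap, and the difference of 2.90 ± 0.96 (SE) was just outside the limit (limma adjusted p = 0.0552).

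Glyur003371s00038967 (1445 to 4365 on the plus strand of Scaffold03371, 3 exons) was the second most abundant gene, with a mean of 238 FPKM. In aerial parts it had 98.2, 94.4 and 37.6 FPKM in salt-drought with silicate, against 23.3, 14.8 and 10.6 FPKM in control with silicate. The groups did not overlap, and the difference of 2.12 ± 0.95 (SE) was not called (limma adjusted p = 0.16). Its spread in other aerial groups was wide: 302, 7.09 and 13.6 FPKM in salt without silicate. Underground it had 446, 727 and 220 FPKM in salt-drought with silicate, against 733, 493 and 357 FPKM in control with silicate. These groups overlapped, and the difference was -0.28 (limma adjusted p = 0.68). In salt with silicate the underground libraries had 191, 172 and 335 FPKM, and the difference of -1.18 was called (limma adjusted p = 0.0329).

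Exact zeros shaped the selection of a few genes. In 57 of the 65 genes no library was at 0, and in 8 at least 1 was. Glyur005404s00043770 (1288 to 1984 on the plus strand of Scaffold05404), picked after its values were seen for its zeros, was listed at 0 in 9 libraries whose group held at least 10 FPKM in the other libraries. In aerial parts without silicate it was listed at 34.0, 33.9 and 43.3 FPKM in salt-drought, against 0, 26.7 and 30.2 FPKM in control. Underground without silicate it was listed at 0, 12.5 and 16.3 FPKM in salt-drought, against 25.7, 23.9 and 24.7 FPKM in control. Reading the zeros as missing, its differences were 0.37 in aerial and -0.75 in underground parts, and it left the set. Another gene left the set in the same way, with 0.24 and -0.67, so that 63 of the 65 remained.

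Salt alone was called in more of the genes than drought alone. With silicate, salt was called higher than control in 4 genes and lower in 0 in aerial parts, against 2.04% higher and 2.32% lower over all genes tested. The median over the 65 genes was 0.38, compared with 0.02 over all genes. Underground, salt was called lower in 20 of 64 genes and higher in 0, against 8.24% lower and 8.88% higher over all genes. The underground median was -0.62, compared with 0.03 over all genes. In the same libraries the underground parts' own markers had a median level of 56.8, 57.5 and 67.1% in salt with silicate, against 98.5, 112 and 97.96% in control with silicate. Summed over the list these were 81.8, 67.8 and 106% against 93.9, 112 and 94.1%, with 0 of the 30 at 0 in any of them. The markers were chosen in these silicate-fed controls, which are also the reference of the percentages. Underground controls without silicate stood at a median of 97.1, 74.1 and 100.1%. The part of these markers in the salt result was not tested. The same 3 libraries served as controls for salt, drought and salt-drought with silicate in each plant part. In 3 genes salt with silicate was called in both plant parts, against 0.0276% of all genes tested, and 7 genes met the limits of 0.6 in both, against 0.239%. Without library 2 of aerial control with silicate, or library 1 or 2 of aerial salt with silicate, 2 genes were called in aerial parts.

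Drought with silicate gave almost no calls. In aerial parts 0 of the 65 genes were called in either direction by limma, with 7 at an unadjusted p under 0.05 (7.49% of all genes tested), and over all genes tested 0.0214% were called higher and 0.115% lower. The median over the 65 genes was 0.04, and it was -0.07 without library 3 of aerial control with silicate. Underground, drought was called lower in 1 of 64 genes and higher in 0, with 17 at an unadjusted p under 0.05 (9.68% of all genes tested), against 0.94% lower and 0.0858% higher over all genes. The underground median was -0.31, compared with 0.02 over all genes. Without library 1 of underground drought with silicate 3 genes were called, and without library 3 the count was 0. Limits of 0.6 in both plant parts were met by 2 genes, against 0.156% of all genes tested.

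Salt and drought without silicate were compared with each other, since their control had served in the selection. In aerial parts salt exceeded drought in 2 of the 65 genes and fell below it in 0, against 0.915% higher and 1.28% lower over all genes tested. The median difference was 0.41 over the 65 genes and -0.06 over all genes, and 51 of the 65 lay above 0. Underground markers stood at 0.16, 0.67 and 0.22% in the aerial salt libraries and at 0.75, 0.67 and 10.1% in the aerial drought libraries. The part of these markers in the aerial result was not tested. Glyur000628s00026636 was called, with a difference of 1.94 (limma adjusted p = 0.00834) from 64.9, 65.1 and 23.7 FPKM in salt and 15.4, 11.4 and 8.44 FPKM in drought. Underground, salt was lower than drought in 7 of 64 genes and higher in 0, against 2.84% lower and 2.24% higher over all genes. The median was -0.35, compared with 0.02 over all genes. The underground parts' own markers stood at 75.9 to 77.55% in salt and 90.1 to 109% in drought, and their part in this result was not tested. These counts were fragile. The aerial count was 0 without library 1 of aerial salt, 1 without library 2 of aerial salt or library 2 of aerial drought, and 5 without library 3 of aerial salt. It was also 1 without the pair of aerial libraries richest in underground markers. The underground count was 3 without library 1 of underground drought and 4 without its library 3. With only the salt and drought groups in the fit, both counts were 0.

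Set against the selecting controls, which they share, the single stresses stood as follows. In aerial parts the median was 0.82 for salt-drought, 0.48 for salt and 0.15 for drought. Over all genes tested it was -0.05, -0.01 and 0.04 in the same order. Salt was above control in 62 of the 65 genes and drought in 42. Underground the median was -0.82 for salt-drought, -0.71 for salt and -0.29 for drought, compared with 0.11, 0.05 and 0.03 over all genes tested. Salt was below control there in 58 genes and drought in 45. Silicate itself, in unstressed seedlings, differed from that control by a median of 0.27 in aerial and -0.13 in underground parts. In salt-drought seedlings silicate differed by -0.20 and 0.11. All of these values share libraries with the selection and carry no test. The selection favours genes with low aerial and high underground values in these controls, and the reverse in these salt-drought libraries. By itself it therefore favours the signs seen here, and no effect of salt, drought or silicate can be read from them.

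The balance of the 65 genes between the organs differed with the condition. In salt-drought with silicate the aerial level was called higher than the underground level in 26 of the 65 genes and lower in 9 (limma on all 48 libraries, adjusted p under 0.05). Over all genes tested 25.3% were higher and 33.1% lower. In silicate-fed controls the aerial level was called higher in 10 genes and lower in 23, against 25.8% higher and 34.9% lower over all genes. The median of aerial minus underground over the 65 genes was 0.50 in salt-drought, 0.36 in salt, -0.19 in drought and -0.32 in control, all with silicate. Over all genes tested the same medians were -0.10, -0.14, -0.11 and -0.12. In salt-drought with silicate 42 genes were higher in aerial than in underground parts, against 20 in control with silicate.

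Gene by gene, most of this came from calls appearing or disappearing. Of the 26 genes called higher in aerial parts in salt-drought with silicate, 15 had no call in control with silicate, 10 were called higher there too and 1, Glyur000628s00026636, was called lower. All 9 genes called lower in aerial parts in salt-drought were called lower in control. Of the 30 genes without a call in salt-drought, 13 were called lower in control and 17 had no call there. A call in 1 condition and none in the other is no test of the change itself, which the 20 positive differences between the responses give.

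**Figure D5:**
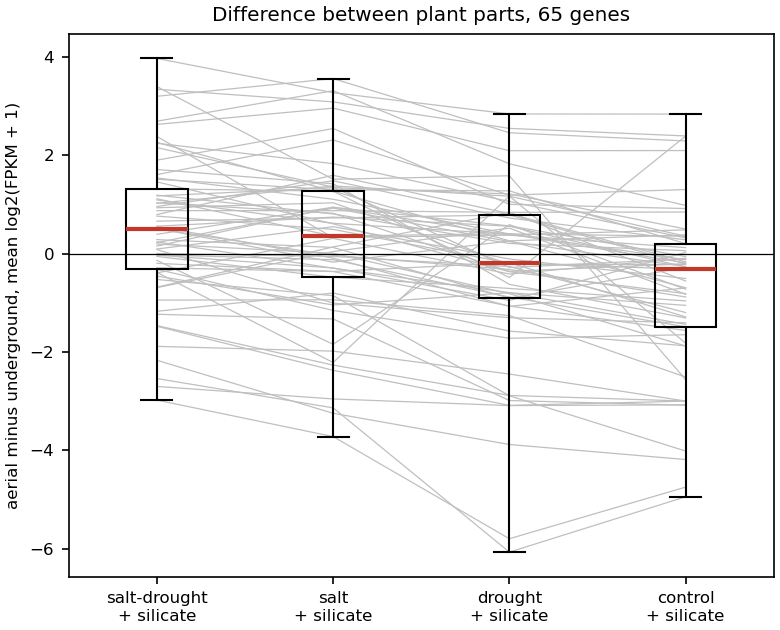
Aerial minus underground mean log2(FPKM + 1) for each of the 65 genes in the 4 silicate-fed conditions; grey lines join the values of a gene, boxes give the quartiles with the median in red, and whiskers reach the lowest and highest gene. The median is 0.50 in salt-drought, 0.36 in salt, -0.19 in drought and -0.32 in control.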

How the data were processed

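Per the labels' protocols, nanopore full-length and Illumina libraries were both prepared; which gave the values is not stated. The authors deposited FPKM values in 1 table. The submitters' processing notes name TopHat2 and Cufflinks; versions, strand handling and genome build are not given in the sources used here. Positions are 1-based, from the deposited annotation. FPKM are not counts, and low values fell within 0.1 of whole multiples of a best-matching step in only 44.0 to 67.4% of cases, so fragment counts were not recovered and depth is unknown. Summed FPKM ran from 618800 to 682429 per library.

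Values were analysed as log2(FPKM + 1), which understates changes of low genes, in R 4.3.3 with limma 3.58.1 (trend and robust options). All 24 libraries of a plant part, or all 48 where organs were compared, entered 1 fit of group means. The genes tested reached 1 FPKM in 3 or more libraries of the fit, and p-values were Benjamini-Hochberg adjusted over all of them in each of 11 comparisons. Code was tested on simulated data. The genes and lists were chosen with earlier results of these data known. Genes named are the 2 with the widest selection contrast, the 2 called in both organs with the largest smaller change (only 1 existed), the 2 called against the selection (none existed) and the 2 most abundant, plus those said to be picked later. Lists by gene name were not run. Same-numbered libraries deviated from their group means with correlations of -0.242 to 0.232, and in no comparison did every pair exceed 0.1, so the numbers were not taken as pairs. Alternatives were another pseudocount, other filters, rescaling, fits of only the groups compared, a replicate block, leaving out libraries and, added after the data were seen, zeros read as missing.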

Additional observations from a re-analysis of the deposited data

Results flagged for a closer look

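Results are listed here because the response to salt-drought with silicate differed between aerial and underground parts by a test of that difference. It was called in 20 of the 65 genes, all with a more positive change in aerial than in underground parts (limma, adjusted p under 0.05). Of these, 13 were also called lower underground and 7 higher in aerial parts. Over all genes tested, 2.35% were called positive and 1.07% negative. With 1 library left out, the count in the 65 genes ran from 11 to 20. For Glyur000742s00025064 the difference was 3.49, for Glyur000628s00026636 it was 3.02 and for Glyur000496s00030957 it was 1.92. Groups of 3 libraries are too small for a test of single outlying libraries.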

How the results depend on the processing

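Among 73 recomputed counts of called genes under settings that changed 1 choice, 68 stayed within 1.5 times the reported count. For the difference between the organ responses, 13 genes were called with only the groups compared in the fit. For aerial salt against drought, the count was 4 with rescaled libraries, 1 without the pair of aerial libraries richest in underground markers and 0 with only the groups compared in the fit, and for underground salt against drought it was 0 in the last of these. With 1 library left out, 55 of 72 counts stayed within that range, and in the comparisons of stresses no gene was called in the opposite direction. The median for aerial drought with silicate, 0.04, was -0.07 without library 3 of aerial control with silicate. The uncalled underground difference of Glyur000742s00025064, 0.00, was -0.09 to -0.04 without any of 4 underground libraries. The counts then ran from 6 to 10 for aerial and 16 to 24 for underground salt-drought with silicate, 11 to 20 for the difference, 2 to 3 and 14 to 19 for salt with silicate, and 0 to 0 and 0 to 3 for drought with silicate. They ran from 0 to 5 and 3 to 7 for salt against drought in aerial and underground parts. Genes lower in aerial than underground parts numbered 9 to 11 in salt-drought and 21 to 25 in control. A group left with 1 fewer library borrowed its spread from the others. With a replicate block, 10 genes were called in aerial parts, 25 underground and 19 in the difference, and no count moved by over 1.5 times. The selection itself depended more on its settings: 265 genes met it with a pseudocount of 0.1, which widens differences of low genes, and 64 of the 65 were among them. It held 81 genes, all 65 included, with rescaled libraries, and 55 to 88 with 1 library left out, 48 to 62 of them shared. The cause of the other shifts was not tested. Depth could not be recovered, so what it limits is unknown.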
